A study of Mus musculus with 22 samples.

Results

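The 36 genes described here encode proteins of the DNA damage checkpoint and of recombination repair, together with a few base excision and mismatch repair proteins. They were picked by gene symbol from the 24411 genes of each deposited table, by a list that uses no measured value but was drawn up with earlier results of these data known. All 36 were found in both tables and passed the filter on low counts in both. The RNA came from primary neural stem cells of the adult mouse hippocampus, grown on laminin-coated plates with EGF and bFGF and sequenced as 22 libraries. In the knockdown arm, cells were exposed for 3 days to lentivirus at 10 particles per cell. The virus encoded a short hairpin RNA against luciferase (ShLuc, 6 libraries, a target these cells lack) or against Ogt, the gene of the enzyme that attaches O-GlcNAc sugars to nuclear and cytosolic proteins (ShOgt, 5 libraries, replicate numbers 1, 2, 3, 5 and 6). In the inhibitor arm, cells were kept for 24 h in 12.5 µM OSMI-1, a small molecule that inhibits the O-GlcNAc transferase, or in an equal volume of DMSO (vehicle). That arm has 6 vehicle and 5 OSMI-1 libraries, the latter numbered 1, 2, 4, 5 and 6. The mouse strain, age and number of animals or cultures behind the libraries are not given in the sources used here, nor is the number of hairpins. P-values therefore measure the spread between these libraries, which may be technical.

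As background, DNA breaks are sensed by the MRE11-RAD50-NBN complex, which activates the kinase ATM, while stalled replication forks expose single-stranded DNA that recruits ATR with its partner ATRIP. These kinases phosphorylate histone H2AX and the effector kinases CHEK1 and CHEK2 and hold the cell cycle while repair proceeds. In S and G2 phase a resected break is repaired by recombination with the sister chromatid, a step that BRCA1, PALB2 and BRCA2 promote, and crosslinks are unhooked through the Fanconi anaemia pathway. Many of these genes are transcribed mainly in S and G2 phase, and in neural stem cells they are known for guarding the replicating genome of dividing progenitors.

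Levels are deposited normalized counts, that is gene counts divided by a size factor per library, and are given as mean ± SD over the 6 control and 5 treated libraries. The arms were normalized separately, so their levels are not compared. Each log2 fold change compares treated with control libraries as log2(value + 1), with its SE after the ± sign, and a gene is said to have risen or fallen where its limma p, adjusted over all genes tested, is below 0.05. Knockdown arm libraries held 7.22 to 13.2 M reads and inhibitor arm libraries 4.52 to 12.8 M reads, where OSMI-1 replicate 4 was the deepest. Ogt itself went from 836 ± 89.8 in ShLuc to 424 ± 63.9 in ShOgt (-0.98 ± 0.11, adjusted p = 1.1e-06), with no overlap. After OSMI-1, which acts on the protein, Ogt mRNA rose from 455 ± 37.6 to 599.9 ± 42.5. The cells held several neural stem cell markers: nestin (Nes) stood at 5591 in ShLuc and 2892 in vehicle, and Slc1a3 and Fabp7 were higher still. Others were low: group means of Sox2 lay between 58.7 and 65.6, and Hes5 and Msi1 averaged below 6 in every group. Microglia markers summed to at most 9.60 in any library, with Cx3cr1, C1qa and C1qb at 0 throughout the knockdown arm and Aif1 at 0 throughout the inhibitor arm.

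Promoter sequences of the members that fell furthest in both arms are printed first, because shared promoter motifs are a common feature of cell cycle genes. By the mean log2 fold change of both arms these were Brca1, Ung and Fanca. RefSeq promoters (GRCm38.p6) were at hand for 28 of the 36 members. Below are the 250 bases before the RefSeq transcription start, 5′ to 3′ on the gene's strand. The CCAAT box, the letters bound by the factor NF-Y, is in capitals. The windows lie at chr11:101551956-101552205 (minus strand), chr5:114130185-114130434 (plus strand) and chr8:123318577-123318826 (minus strand). In GENCODE M21 the Ung gene begins at 114130386, inside its window, so the last bases printed for Ung lie after that start.
Brca1: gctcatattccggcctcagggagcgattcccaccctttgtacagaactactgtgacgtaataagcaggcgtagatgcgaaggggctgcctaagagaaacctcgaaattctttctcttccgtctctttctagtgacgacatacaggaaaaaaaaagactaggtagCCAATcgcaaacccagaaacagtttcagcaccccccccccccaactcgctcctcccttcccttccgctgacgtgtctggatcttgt
Ung: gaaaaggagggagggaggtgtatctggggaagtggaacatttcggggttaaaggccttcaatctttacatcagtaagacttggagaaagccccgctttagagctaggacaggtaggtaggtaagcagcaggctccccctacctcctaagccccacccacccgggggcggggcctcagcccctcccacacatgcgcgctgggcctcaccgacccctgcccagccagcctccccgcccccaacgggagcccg
Fanca: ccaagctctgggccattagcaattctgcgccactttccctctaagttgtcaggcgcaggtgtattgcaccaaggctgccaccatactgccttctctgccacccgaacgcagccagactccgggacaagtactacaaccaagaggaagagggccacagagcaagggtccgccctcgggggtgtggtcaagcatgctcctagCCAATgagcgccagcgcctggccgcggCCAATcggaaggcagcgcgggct
The CCAAT box begins at -86 in the Brca1 window and at -50 and -23 in the Fanca window, counted from the start, and the Ung window holds none. Over windows of 300 bases (250 before and 50 after the start), CCAAT on either strand was present in 17 of 28 members (60.7%) and in 43.8% of the 8675 genes tested in both arms that have a promoter.

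E2F factors switch on genes of S phase, and their sites often read as TTTCCCGC, TTTGGCGC or TTTCGCGC. These 8-letter words, searched on both strands, occurred in 8 of 28 members (28.6%) and in 4.32% of the 8675 genes. None of the words contains CCAAT or TTTGAA. The latter is the core of the cell cycle element CHR, which 2 of 28 members (7.14%) and 13.7% of the genes held. Stretches of 30 bases around each E2F-type word are shown, the word in capitals, because 4 of the 8 genes that hold it passed in neither arm. They were selected after the values were seen.
Bard1: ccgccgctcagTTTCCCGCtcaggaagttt
Brca2: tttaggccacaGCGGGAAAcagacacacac
Fancg: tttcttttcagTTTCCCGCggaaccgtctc
Rmi1: ccccgagggagTTTGGCGCgattggaggag
Chek2: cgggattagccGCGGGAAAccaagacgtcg
Topbp1: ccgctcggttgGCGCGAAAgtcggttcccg
Clspn: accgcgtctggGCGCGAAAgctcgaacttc
Msh6: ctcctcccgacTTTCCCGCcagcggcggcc
They lie at chr1:71103163-71103192 (minus strand), chr5:150522442-150522471 (plus strand), chr4:43010335-43010364 (minus strand), chr13:58402612-58402641 (plus strand), chr5:110839820-110839849 (plus strand), chr9:103305187-103305216 (plus strand), chr4:126556990-126557019 (plus strand) and chr17:87975054-87975083 (plus strand), on the build GRCm38.p6. The words on the minus strand of the gene read GCGGGAAA or GCGCGAAA. Counted from the RefSeq start, the word begins 209, 168, 52, 152 and 129 bases before it in Bard1, Brca2, Fancg, Chek2 and Topbp1. In Rmi1, Clspn and Msh6 the word lies 26, 21 and 15 bases after that start. GENCODE M21 places some starts elsewhere, so these distances depend on the annotation. Its Topbp1 gene begins at 103305215, near the end of the stretch shown. Its Fancg gene, on the minus strand, reaches 43010506, so the stretch lies inside it. Of the 20 members that fell in both arms 15 have a promoter, and 1 of these (Chek2) held such a word. Of the 9 that passed in neither arm 7 have a promoter, and 4 of these held one (Brca2, Fancg, Rmi1 and Msh6). Only these exact words were searched, so the counts do not show which members lack E2F sites. These are matches of letters in a short window, and binding was not measured.

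After Ogt knockdown 24 of the 36 members fell, none rose and 12 did not pass. Over all 12136 genes tested, 31.8% passed, with 16.4% lower and 15.4% higher. The median log2 fold change of the members was -0.67 (range -1.37 to 0.02), beside 0.01 over all genes. In 14 members every ShOgt library lay below every ShLuc library, which held for 9.96% of all genes. After OSMI-1, 23 of 36 fell, none rose and 13 did not pass, where 24.8% of the 11349 genes tested passed, 13.2% of them lower and 11.6% higher. The median was -0.69 (range -1.31 to 0.29), beside 0.00 over all genes, and 11 members had no overlap, against 7.71% of all genes.

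The members fell beside markers of dividing cells. All 8 cycling markers measured (Mki67, Pcna, Mcm5, Ccnb1, Ccna2, Plk1, Top2a and Cdk1) fell in both arms, with median log2 fold changes of -0.85 after knockdown and -1.36 after OSMI-1. Their summed level was 18900.2 to 21391 in control and 9814 to 12142 in treated libraries of the knockdown arm, and 10087 to 11635 in control and 4358 to 4746 in treated libraries of the inhibitor arm, so that the groups did not overlap. Mki67, a marker of cells outside quiescence, went from 1286 to 636 after knockdown and from 738 to 287 after OSMI-1. The part of these markers in the fall of the repair genes was not tested. In RNA from whole cultures, fewer cells in S and G2 phase and less repair mRNA per cell cannot be told apart.

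**Figure D1:**
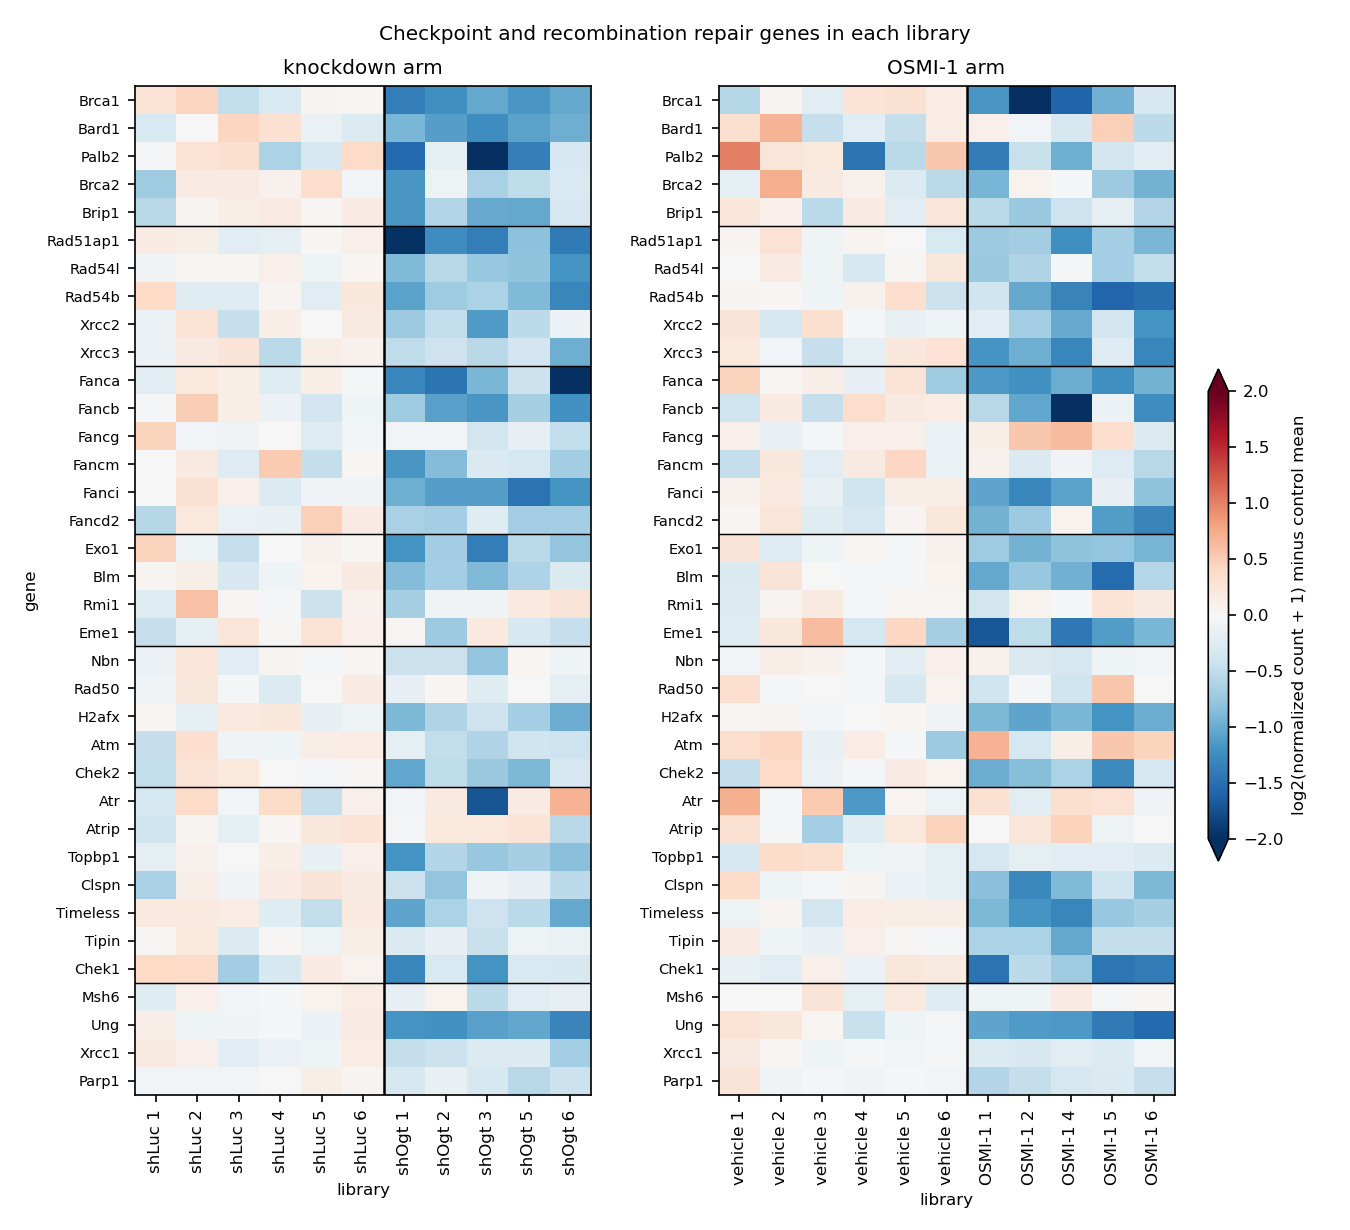
Each cell is 1 gene in 1 library, as log2(normalized count + 1) minus the mean of that arm's control libraries (blue lower, red higher, colours end at 2 log2 units), with genes grouped by role and a vertical line between control and treated libraries. Blue fills most of the 5 treated columns of each arm, and Atrip, Rmi1, Rad50 and Msh6 stay pale in most libraries.

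The BRCA1-BRCA2 mediators start recombination on resected DNA. After knockdown 4 of 5 fell (median -1.06), and after OSMI-1 2 of 5 (median -0.51). Brca1 (ENSMUSG00000017146, chr11:101488764-101551955, minus strand, GRCm38 as in GENCODE M21, like all gene positions here) encodes a ubiquitin ligase that promotes resection and recombination. It lay between 191 and 364 (median 278) in ShLuc and at 102, 114, 131, 119.5 and 131 in ShOgt. The ShOgt libraries were close together and all below ShLuc, with the mean going from 275 ± 64.7 to 119.7 ± 12.2 (-1.17 ± 0.16, adjusted p = 2.0e-05). In the inhibitor arm Brca1 lay between 99.1 and 183 (median 159) in vehicle and at 65.6, 25.3, 48.2, 75.2 and 118 in OSMI-1. OSMI-1 replicate 6 was the high one and lay above vehicle replicate 1, so the groups overlapped, with the mean going from 151 ± 32.1 to 66.5 ± 34.5 (-1.31 ± 0.26, adjusted p = 6.6e-04).

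Bard1 encodes the obligate partner of BRCA1. It was a low transcript, between 38.5 and 64.6 (median 45.6) in ShLuc and at 24.9, 21.7, 19.8, 22.4 and 23.9 in ShOgt. No ShOgt library reached the lowest ShLuc library, and Bard1 fell from 48.9 ± 10.9 to 22.5 ± 2.00 (-1.06 ± 0.26, adjusted p = 0.0038). After OSMI-1 it went from 17.7 ± 6.24 to 16.6 ± 4.81 (-0.06 ± 0.32, adjusted p = 0.91, 95% interval -0.73 to 0.61). Palb2 encodes the bridge between BRCA1 and BRCA2. It lay between 37.6 and 77.6 (median 65.4) in ShLuc and at 19.6, 52.3, 11.3, 22.4 and 46.8 in ShOgt, where replicates 2 and 6 lay within the ShLuc range. Its mean went from 61.1 ± 16.4 to 30.5 ± 17.99 (-1.14 ± 0.35, adjusted p = 0.018), and without ShOgt replicate 3 this fall no longer passed. Without that library it was -0.85, with adjusted p = 0.0503. Leaving out the libraries that stood apart on principal components gave -0.78, with adjusted p = 0.11. In the inhibitor arm it went from 32.2 ± 16.7 to 17.9 ± 5.82 (-0.68 ± 0.37, adjusted p = 0.19).

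Brca2, a tumour suppressor of recombination repair, did not pass in either arm. Its mean went from 84.8 ± 19.1 to 57.97 ± 15.2 after knockdown (-0.55 ± 0.24, adjusted p = 0.085) and from 76.7 ± 25.4 to 53.7 ± 18.98 after OSMI-1 (-0.51 ± 0.23, adjusted p = 0.12). Brip1, a helicase that binds BRCA1, fell in both arms. It went from 122 ± 20.4 to 69.4 ± 17.9 after knockdown (-0.83 ± 0.20, adjusted p = 0.0035) and from 101 ± 20.3 to 70.3 ± 10.3 after OSMI-1 (-0.50 ± 0.17, adjusted p = 0.036). The latter call was lost in 8 of 21 alternative analyses, among them those without vehicle 1, 2, 4 or 6 or OSMI-1 1, 2 or 6 (adjusted p up to 0.089).

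The strand exchange genes, which act where a broken strand pairs with an intact copy, were the only role group in which every member fell in both arms, 5 of 5 in each (medians -0.84 and -0.85). Rad51ap1 (ENSMUSG00000030346, chr6:126923050-126939587, minus strand) encodes a cofactor of strand pairing and had the lowest log2 fold change of all members after knockdown. It lay between 249 and 329 (median 306) in ShLuc and at 73.8, 123, 112, 164 and 109 in ShOgt. All ShOgt libraries were below the ShLuc range, with replicate 1 lowest, and the mean went from 294 ± 32.97 to 116 ± 32.5 (-1.37 ± 0.17, adjusted p = 4.9e-06). After OSMI-1 it fell from 163 ± 21.8 to 89.8 ± 13.7 (-0.85 ± 0.14, adjusted p = 9.5e-05), again with no overlap. Rad54b, a DNA translocase, lay between 49.4 and 84.7 (median 68.6) in vehicle and at 50.1, 32.4, 25.8, 21.5 and 22.9 in OSMI-1. OSMI-1 replicate 1 was the high one and passed the lowest vehicle library, while the mean fell from 67.5 ± 11.5 to 30.6 ± 11.7 (-1.17 ± 0.23, adjusted p = 4.9e-04). After knockdown Rad54b fell from 132 ± 26.3 to 69.2 ± 12.8 (-0.92 ± 0.19, adjusted p = 9.0e-04).

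Rad54l, the other translocase of the pair, fell from 504 ± 26.1 to 284 ± 44.6 after knockdown (-0.84 ± 0.11, adjusted p = 1.2e-05) with no overlap. After OSMI-1 it fell from 155 ± 20.3 to 109.7 ± 23.9 (-0.51 ± 0.15, adjusted p = 0.012). Xrcc2 and Xrcc3 encode proteins of recombination repair first found through radiation-sensitive cell lines. Xrcc2 fell from 205 ± 35.5 to 137 ± 34.5 after knockdown (-0.59 ± 0.18, adjusted p = 0.015) and from 139 ± 24.3 to 87.03 ± 24.4 after OSMI-1 (-0.70 ± 0.18, adjusted p = 0.0051). Xrcc3 fell from 400.2 ± 72.8 to 268 ± 40.3 after knockdown (-0.57 ± 0.15, adjusted p = 0.0052) and from 113 ± 22.1 to 57.2 ± 20.6 after OSMI-1 (-1.01 ± 0.20, adjusted p = 5.5e-04). The groups overlapped for both Xrcc genes in both arms.

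Of the 6 Fanconi anaemia genes, 5 fell after knockdown and 4 after OSMI-1 (medians -0.82 and -0.84). Fanca (ENSMUSG00000032815, chr8:123268300-123318576, minus strand) encodes a subunit of the core ubiquitin ligase complex. It lay between 192 and 263 (median 234) in ShLuc and at 90.7, 81.9, 120.0, 169 and 54.1 in ShOgt. The spread among ShOgt libraries was wide, from replicate 6 to replicate 5, yet all lay below ShLuc, and the mean went from 228 ± 29.8 to 103 ± 43.5 (-1.23 ± 0.22, adjusted p = 2.3e-04). In the inhibitor arm it lay between 62.3 and 139 (median 108) in vehicle and at 45.6, 43.6, 50.8, 42.96 and 52.7 in OSMI-1. The OSMI-1 libraries lay close together and below every vehicle library, with the mean going from 105 ± 26.8 to 47.1 ± 4.38 (-1.10 ± 0.19, adjusted p = 1.3e-04).

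Fancb, another core subunit, lay between 61.7 and 114 (median 76.7) in ShLuc and at 48.9, 37.5, 35.3, 50.2 and 34.3 in ShOgt. It fell without overlap from 81.9 ± 17.8 to 41.2 ± 7.67 (-0.97 ± 0.22, adjusted p = 0.0021). In vehicle it lay between 45.7 and 81.3 (median 71.1), and in OSMI-1 at 42.8, 30.4, 13.8, 58.5 and 26.3. OSMI-1 replicate 5 lay within the vehicle range and replicate 4, the deepest library, was lowest, with the mean going from 64.9 ± 14.5 to 34.4 ± 17.01 (-1.01 ± 0.28, adjusted p = 0.0097). Fancg, also a core subunit, did not pass in either arm, and its mean went from 252 ± 45.1 to 214 ± 28.7 after knockdown (-0.23 ± 0.14, adjusted p = 0.24) and from 83.3 ± 6.76 to 103 ± 24.04 after OSMI-1 (0.27 ± 0.16, adjusted p = 0.25). The core complex thus held both genes that fell in both arms and 1 that passed in neither.

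Fanci and Fancd2 encode the pair of proteins that the core complex ubiquitinates at a crosslink. Fanci lay between 654 and 969 (median 768) in ShLuc and at 401, 366, 367, 283 and 341 in ShOgt. Every ShOgt library was far below ShLuc, and the mean fell from 793 ± 107 to 352 ± 43.99 (-1.17 ± 0.11, adjusted p = 2.4e-07). After OSMI-1 it fell from 289.6 ± 42.9 to 162 ± 55.1 (-0.88 ± 0.16, adjusted p = 2.4e-04). Its partner Fancd2 fell from 277 ± 67.5 to 181 ± 26.9 after knockdown (-0.59 ± 0.16, adjusted p = 0.0099) and from 106 ± 17.3 to 63.1 ± 27.5 after OSMI-1 (-0.81 ± 0.21, adjusted p = 0.0056). Fancm encodes the translocase that anchors the core complex on DNA. It fell from 90.9 ± 22.6 to 56.6 ± 13.96 after knockdown (-0.67 ± 0.23, adjusted p = 0.028), a call lost in 6 of 21 alternative analyses, also with the replicate number as a block and with ShLuc 2, ShLuc 4, ShOgt 1 or ShOgt 2 left out (highest adjusted p = 0.095). After OSMI-1 it went from 74.8 ± 16.9 to 63.3 ± 10.6 (-0.22 ± 0.19, adjusted p = 0.42).

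**Figure D2:**
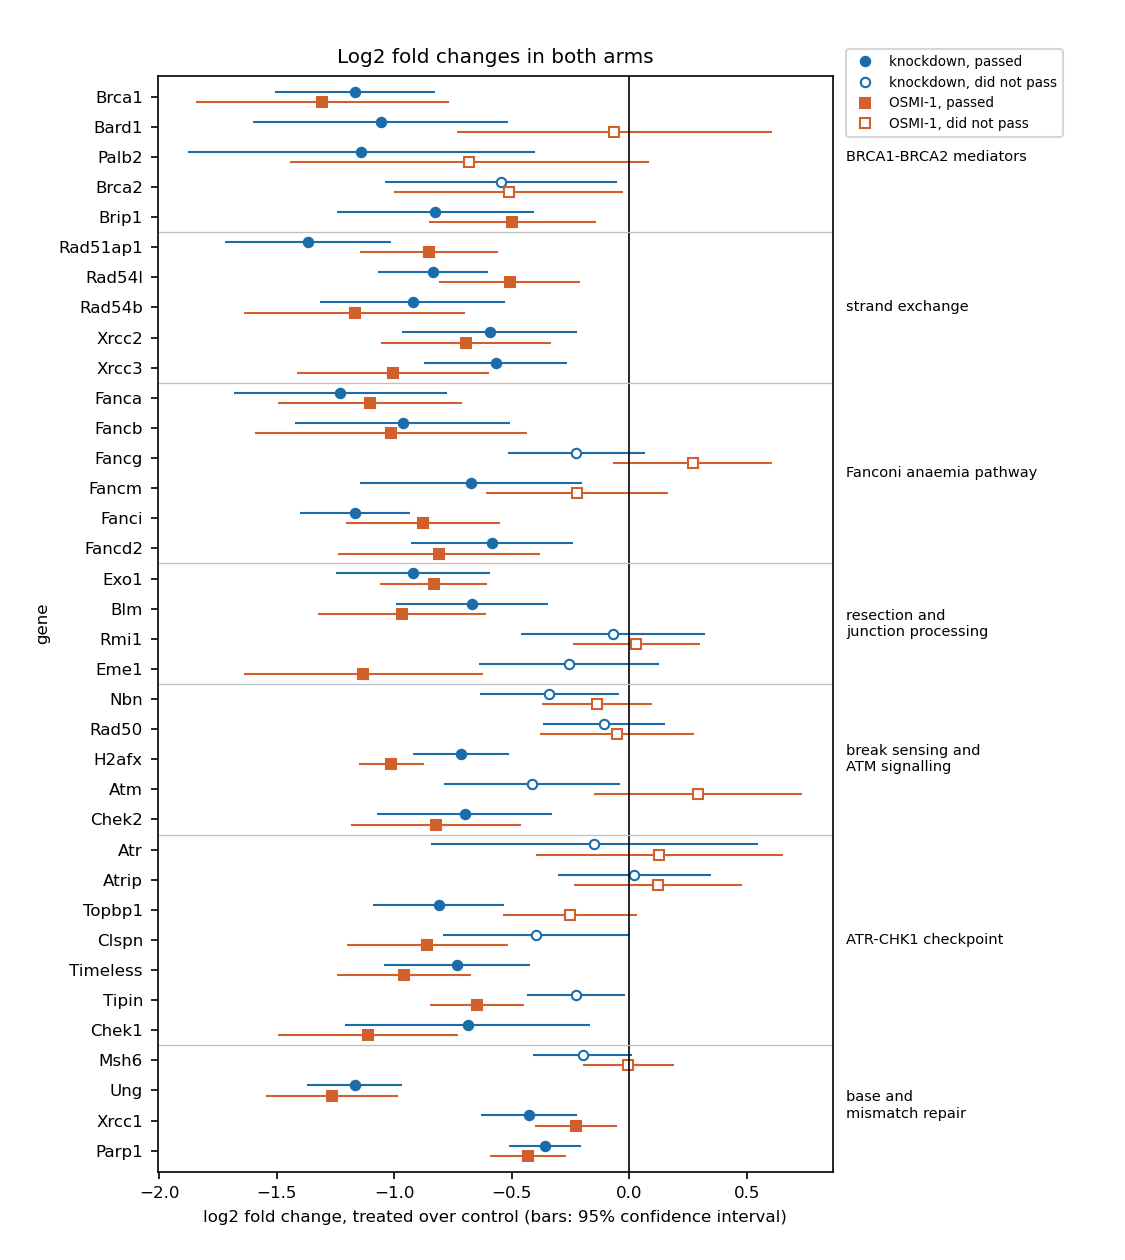
Each row is 1 gene with its log2 fold change in the knockdown arm (blue circles) and the OSMI-1 arm (orange squares), bars being 95% confidence intervals and filled symbols passing at adjusted p below 0.05. All filled symbols lie left of 0, and the 5 strand exchange genes are filled in both arms.

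The resection and junction group holds nucleases and helicases that open break ends and take apart joined DNA molecules. After knockdown 2 of 4 fell (median -0.46) and after OSMI-1 3 of 4 (median -0.90). Exo1, a resection nuclease, fell from 616 ± 124 to 327 ± 76.01 after knockdown (-0.92 ± 0.16, adjusted p = 1.6e-04) and from 274 ± 33.2 to 153 ± 10.8 after OSMI-1 (-0.83 ± 0.11, adjusted p = 5.4e-06), without overlap in both arms. Blm, the helicase that dissolves double Holliday junctions, fell from 181 ± 21.6 to 114 ± 20.1 after knockdown (-0.67 ± 0.15, adjusted p = 0.0024) and from 113 ± 13.7 to 58.3 ± 13.9 after OSMI-1 (-0.97 ± 0.17, adjusted p = 2.1e-04). Rmi1, which works with BLM, went from 192 ± 49.5 to 183 ± 41.7 after knockdown (-0.07 ± 0.19, adjusted p = 0.81) and from 151 ± 15.2 to 155 ± 25.00 after OSMI-1 (0.03 ± 0.13, adjusted p = 0.9). Its 95% intervals ran from -0.46 to 0.32 and from -0.24 to 0.30. Blm thus passed in both arms and Rmi1 in neither, and the 2 genes were not tested against each other.

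Eme1 (ENSMUSG00000039055, chr11:94644996-94653964, minus strand) encodes the partner of the junction nuclease MUS81. It lay between 118 and 196 (median 169.7) in ShLuc and at 165, 97.7, 185, 130.2 and 118 in ShOgt. These ranges overlapped widely, and Eme1 did not pass after knockdown, with the mean going from 165 ± 29.9 to 139 ± 35.5 (-0.26 ± 0.18, adjusted p = 0.31). In vehicle it lay between 49.4 and 121 (median 79.3), and in OSMI-1 at 23.7, 54.7, 28.4, 35.8 and 41.2. Only OSMI-1 replicate 2 reached the vehicle range, and the mean fell from 82.5 ± 27.8 to 36.8 ± 12.1 (-1.13 ± 0.25, adjusted p = 0.0014).

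Among the genes of break sensing and ATM signalling, 2 of 5 fell in each arm (medians -0.42 and -0.14), and in both arms these were H2afx and Chek2. H2afx (ENSMUSG00000049932, chr9:44334694-44336077, plus strand) encodes the histone H2AX, whose phosphorylated form marks chromatin around a break. It lay between 1796 and 1957 (median 1898) in vehicle and at 1005, 903, 995, 826 and 948 in OSMI-1. Both groups were tight and far apart, with a fall from 1885 ± 65.8 to 936 ± 73.6 (-1.01 ± 0.07, adjusted p = 1.0e-10). After knockdown it fell from 5242 ± 648 to 3202 ± 510.1 (-0.72 ± 0.10, adjusted p = 1.6e-05), also without overlap. Chek2, the effector kinase of ATM, fell from 156 ± 26.9 to 95.8 ± 19.2 after knockdown (-0.70 ± 0.18, adjusted p = 0.0049) and from 137 ± 26.5 to 77.6 ± 19.3 after OSMI-1 (-0.82 ± 0.17, adjusted p = 0.0012).

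The sensors themselves did not pass in either arm. Atm, the kinase, went from 111 ± 20.7 to 82.3 ± 8.88 after knockdown (-0.42 ± 0.18, adjusted p = 0.086) and from 71.1 ± 18.7 to 87.1 ± 22.9 after OSMI-1 (0.29 ± 0.21, adjusted p = 0.35). Nbn, the subunit of the MRE11 complex that binds ATM, went from 321 ± 35.6 to 257 ± 57.1 (-0.34 ± 0.14, adjusted p = 0.074) and from 205 ± 18.1 to 187 ± 23.1 (-0.14 ± 0.11, adjusted p = 0.41). Rad50, its ATPase, went from 244 ± 30.02 to 226 ± 19.3 (-0.11 ± 0.12, adjusted p = 0.55) and from 151 ± 22.2 to 148 ± 43.5 (-0.05 ± 0.16, adjusted p = 0.85). The 95% intervals of Rad50 ran from -0.37 to 0.15 and from -0.38 to 0.28, so changes of that size could not be told from none.

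The ATR-CHK1 branch answers to stalled forks. After knockdown 3 of its 7 members fell (median -0.40), and after OSMI-1 4 of 7 (median -0.65). The kinase Atr went from 64.4 ± 15.6 to 64.4 ± 30.1 after knockdown (-0.15 ± 0.33, adjusted p = 0.77) and from 58.7 ± 23.1 to 60.2 ± 10.3 after OSMI-1 (0.13 ± 0.25, adjusted p = 0.76). Atrip, which brings ATR to single-stranded DNA, went from 328 ± 56.2 to 335 ± 70.8 (0.02 ± 0.16, adjusted p = 0.93) and from 135 ± 36.1 to 144 ± 23.4 (0.12 ± 0.17, adjusted p = 0.66). The apical kinase and its partner therefore passed in neither arm.

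Chek1 (ENSMUSG00000032113, chr9:36708482-36727065, minus strand) encodes the effector kinase of ATR, which restrains entry into mitosis. It lay between 107 and 147 (median 125) in vehicle and at 44.7, 87.2, 76.2, 45.3 and 46.96 in OSMI-1. All OSMI-1 libraries were below vehicle with replicates 1, 5 and 6 lowest, and the mean fell from 127 ± 16.8 to 60.1 ± 20.1 (-1.11 ± 0.19, adjusted p = 9.5e-05). After knockdown it fell from 115 ± 31.5 to 72.3 ± 23.8 (-0.69 ± 0.25, adjusted p = 0.041) with overlap, a call lost in 9 of 21 alternative analyses, also with any of ShLuc 1, 2, 5 and 6 and ShOgt 1 and 3 left out (highest adjusted p = 0.13). Timeless encodes the fork protection partner of TIPIN. It fell from 566 ± 106 to 339 ± 67.1 after knockdown (-0.73 ± 0.15, adjusted p = 8.2e-04) and from 221 ± 28.6 to 114 ± 21.4 after OSMI-1 (-0.96 ± 0.14, adjusted p = 1.6e-05). Clspn encodes claspin, the adaptor through which ATR activates CHEK1. It fell after OSMI-1 from 119 ± 17.6 to 65.8 ± 15.04 (-0.86 ± 0.17, adjusted p = 4.5e-04) without overlap, and after knockdown went from 141 ± 28.6 to 107 ± 20.9 (-0.40 ± 0.19, adjusted p = 0.12).

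Topbp1 (ENSMUSG00000032555, chr9:103305215-103350428, plus strand) encodes the activator of ATR. It lay between 251 and 312 (median 292) in ShLuc and at 123, 188, 167, 178 and 159 in ShOgt. All ShOgt libraries lay below ShLuc, and the mean fell from 285 ± 26.1 to 163 ± 25.1 (-0.81 ± 0.13, adjusted p = 1.1e-04). In the inhibitor arm it lay between 124 and 200.1 (median 145) in vehicle and at 120.3, 135, 133, 132 and 127 in OSMI-1. The OSMI-1 libraries were tight and overlapped the lower vehicle libraries, with the mean going from 157 ± 31.9 to 129.6 ± 5.97 (-0.25 ± 0.14, adjusted p = 0.19). Tipin (ENSMUSG00000032397, chr9:64281581-64305424, plus strand) showed the reverse order. It lay between 576 and 805 (median 707) in ShLuc and at 570.1, 621, 509.6, 649 and 634 in ShOgt, where all but replicates 1 and 3 lay within the ShLuc range, with the mean going from 699.8 ± 80.4 to 597 ± 56.97 (-0.23 ± 0.10, adjusted p = 0.092). In vehicle it lay between 585 and 728 (median 645), and in OSMI-1 at 417, 421, 320.2, 467 and 465. No OSMI-1 library reached vehicle, and the mean fell from 652 ± 53.7 to 418 ± 59.5 (-0.65 ± 0.10, adjusted p = 2.5e-05).

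Of the 4 base excision and mismatch repair genes, the same 3 fell in both arms (medians -0.39 and -0.33 over the 4). Ung (ENSMUSG00000029591, chr5:114130386-114139323, plus strand) encodes the glycosylase that removes uracil from DNA. It lay between 605 and 731 (median 636) in ShLuc and at 287, 281, 309, 318 and 261 in ShOgt. Both groups were tight, and the mean fell from 657 ± 53.5 to 291 ± 22.7 (-1.17 ± 0.10, adjusted p = 3.5e-08). In the inhibitor arm it lay between 197 and 328 (median 271) in vehicle and at 129, 122, 120.5, 100.2 and 90.5 in OSMI-1. Again no treated library reached a control library, with a fall from 273 ± 46.98 to 112 ± 16.1 (-1.27 ± 0.14, adjusted p = 2.8e-07).

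Parp1, the sensor of strand breaks that builds poly(ADP-ribose), fell by less. It went from 2658 ± 142 to 2078 ± 216 after knockdown (-0.36 ± 0.07, adjusted p = 9.1e-04) and from 1132 ± 105 to 839 ± 71.5 after OSMI-1 (-0.43 ± 0.08, adjusted p = 2.4e-04), without overlap in both arms. Xrcc1, the scaffold of single-strand break repair, fell from 991 ± 109 to 738 ± 85.00 after knockdown (-0.43 ± 0.10, adjusted p = 0.0023). After OSMI-1 it fell from 466 ± 32.1 to 398 ± 29.03 (-0.23 ± 0.08, adjusted p = 0.049), a call lost in 13 of 21 alternative analyses, among them those without any 1 vehicle library, OSMI-1 1, 2, 4 or 5, and the replicate block (adjusted p up to 0.16). Msh6, a subunit of the mismatch sensor, went from 998 ± 95.6 to 873 ± 125 after knockdown (-0.20 ± 0.10, adjusted p = 0.14) and from 572 ± 80.4 to 567 ± 41.1 after OSMI-1 (-0.0044 ± 0.09, adjusted p = 0.98).

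**Figure D3:**
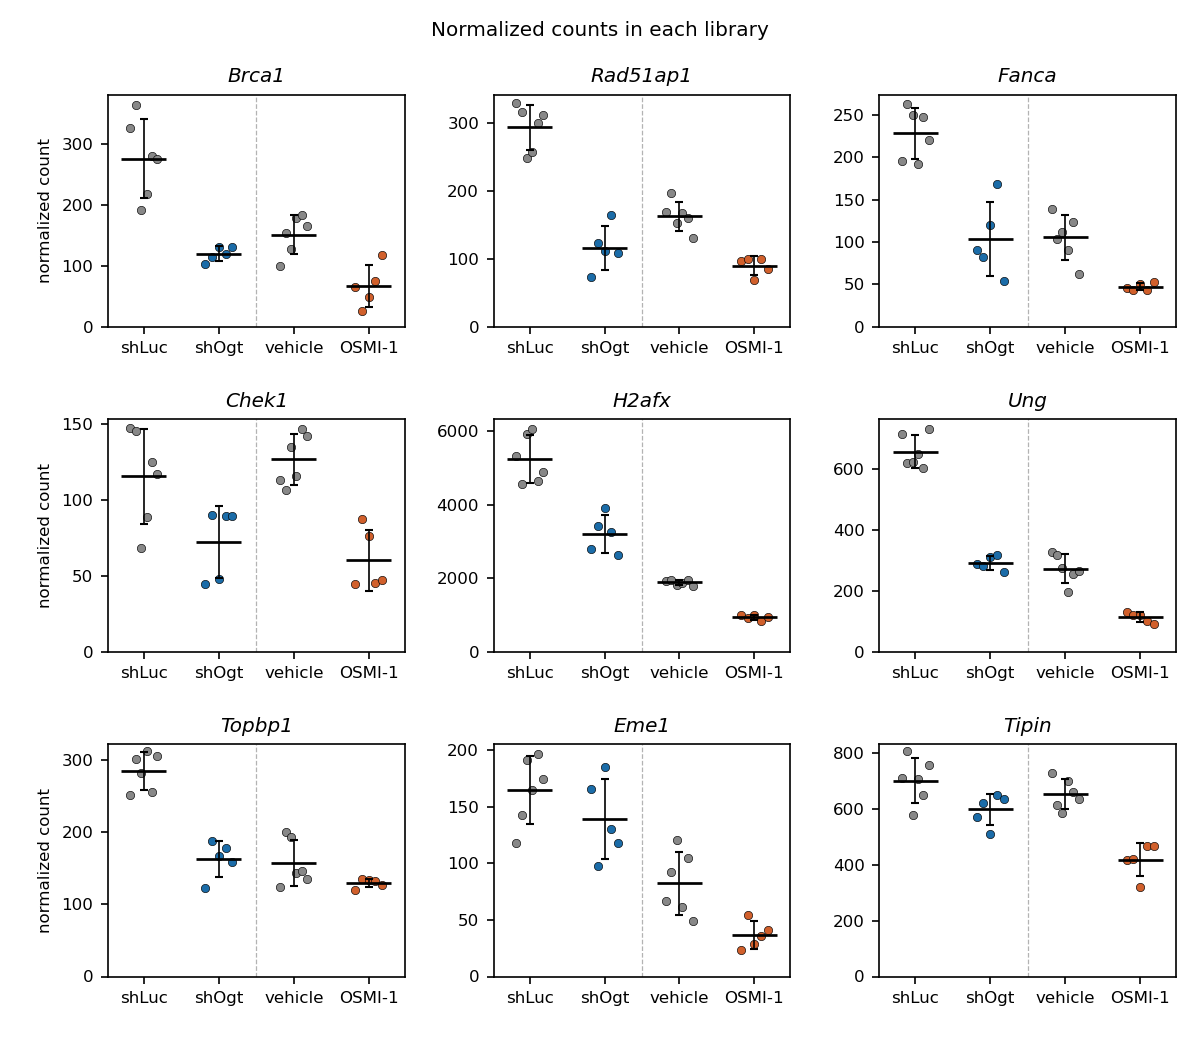
Normalized counts (linear axis from 0) of 9 genes in each library, with the group mean as a horizontal line and the SD as an error bar, control groups in grey and a dashed line between the separately normalized arms. Ung and H2afx show no overlap in both arms, Topbp1 shows a clear gap only in the knockdown arm, and Tipin only in the inhibitor arm.

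Both arms share no library, so their fold changes could be set side by side. Of the 36 members, 20 fell in both arms, where 5.64% of the 11269 genes tested in both arms were called lower in both. None rose in both, where 2.72% of all genes did. Bard1, Fancm, Palb2 and Topbp1 passed after knockdown and not after OSMI-1, Clspn, Eme1 and Tipin passed after OSMI-1 and not after knockdown, and Atm, Atr, Atrip, Brca2, Fancg, Msh6, Nbn, Rad50 and Rmi1 passed in neither. No member moved in opposite directions past the threshold, as 3.19% of all genes did. The log2 fold change was below 0 in both arms for 31 of 36 members, beside 3189 of the 11269 genes. Across the 36 members the log2 fold changes of the arms had a Pearson r of 0.62, and across the 11269 genes 0.16. Genes are not independent replicates, and this is a description.

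The difference between the arms was tested directly for each gene in 1 limma fit over all 22 libraries, where 22.9% of the 11269 genes passed. Among the members 3 of 36 did. Eme1 had the higher log2 fold change after knockdown (0.88 ± 0.32, 95% interval 0.22 to 1.53, adjusted p = 0.045). Tipin did too (0.42 ± 0.14, 95% interval 0.14 to 0.71, adjusted p = 0.028). Topbp1 had the lower one after knockdown (-0.56 ± 0.19, 95% interval -0.94 to -0.17, adjusted p = 0.031). The Eme1 difference was lost in 13 of 27 alternative analyses, namely with any of ShLuc 1, 2, 4 and 6, ShOgt 1, 3 and 5, vehicle 2, 3 and 5, and OSMI-1 1, 4 and 5 left out (highest adjusted p = 0.097). That of Topbp1 was lost without ShLuc 4, ShOgt 1, or vehicle 1, 4 or 6 (up to 0.077), and that of Tipin without ShLuc 3, ShOgt 5 or OSMI-1 4 (up to 0.071). For Bard1, the other gene with a wide gap, the difference was -0.99 ± 0.39, 95% interval -1.80 to -0.19, adjusted p = 0.067. The unadjusted p was below 0.05 for Bard1, Atm, H2afx, Fancg and Rad51ap1 as well. None of these 5 passed at adjusted p below 0.05 in the main test, but each did in at least 1 alternative analysis. H2afx passed in 4 of 27, Atm in 3 of 27, Bard1 in 3 of 26, Rad51ap1 in 2 of 27 and Fancg in 1 of 26. In the main test a difference was thus not shown for any member but Eme1, Tipin and Topbp1, and which members pass depends on the setting. The arms also differ in agent and in time.

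Levels between genes can be compared only per length. Per kilobase of the longest coding transcript, H2afx was the most abundant member in ShLuc (3788 normalized counts per kilobase), followed by Parp1 (686), Xrcc1 (392), Tipin (380) and Ung (308). The lowest were Brca2 (7.91), Atr (7.95) and Bard1 (8.63). The 95% interval of the log2 fold change of Atr ran from -0.85 to 0.55 after knockdown. By GENCODE M21, exons of 13 members overlap an exon of a gene on the opposite strand, among them Fanca (Zfp276), Fanci (Polg), Rmi1 (Hnrnpk), Eme1 (Lrrc59 and Mrpl27) and Rad54l (Lrrc41), and Rad54b shares exons with Fsbp on its own strand. Whether counting used strand is not given in the sources used here, so counts of these genes may include reads of the neighbour. For Rad54b and Fsbp, with an overlap of up to 2068 bases, counting by strand would not separate the 2 genes. The word AACATGC in the 3′UTR was taken from earlier results on these data, where genes with it had lower levels after knockdown. Over all tested genes here the median log2 fold change was -0.18 with the word and 0.01 without it. These values come from the same data and are no independent check. Of the members only Rad54b and Xrcc2 (5.56%, beside 10.2% of 10618 genes) held it, and both fell after knockdown and after OSMI-1. A part of this word in the fall of the members was not tested.

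Other repair genes outside the 36 were counted by pathway. Over all genes tested, 16.4% fell and 15.4% rose after knockdown, and 13.2% fell and 11.6% rose after OSMI-1. Of 39 further recombination and Fanconi genes tested after knockdown, 14 fell and 1 rose (median -0.32), led by the helicase Recql4 (83.1 to 37.8, log2 -1.60), the helicase Mcm8 (292 to 146, log2 -1.02) and the junction nuclease Gen1 (108 to 55.04, log2 -0.98). After OSMI-1 15 of 37 fell and none rose (median -0.34), led by Gen1 (77.8 to 34.3, log2 -1.16), Fignl1 (568 to 263, log2 -1.12), an ATPase of recombination repair, and the deubiquitinase of FANCD2, Usp1 (91.02 to 47.3, log2 -0.99). Among 27 further checkpoint genes, 5 fell and 3 rose after knockdown (median -0.09), which is near the share over all genes. The largest changes were in Mdc1 (549 to 234, log2 -1.24), the adaptor that reads phosphorylated H2AX, Wdhd1 (305 to 152, log2 -1.001) and Tlk2 (79.00 to 39.6, log2 -0.998). After OSMI-1 9 of 27 fell and none rose (median -0.37), led by the phosphatases Cdc25c (178 to 66.00, log2 -1.42) and Cdc25b (175 to 68.9, log2 -1.40), which drive entry into mitosis, and by Mdc1 (318 to 154, log2 -1.04).

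Of 12 mismatch repair genes, 5 fell after knockdown and 7 after OSMI-1, and none rose (medians -0.28 and -0.35). Those leading the list were mostly clamp loader subunits, which also serve replication: Rfc2 (2871 to 1188, log2 -1.28), Rfc4 (763 to 413, log2 -0.90) and the clamp Pcna (2328 to 1323, log2 -0.82) after knockdown, and Rfc5 (666 to 357, log2 -0.90), Rfc4 (382 to 236, log2 -0.70) and the mismatch endonuclease subunit Pms2 (118 to 79.5, log2 -0.59) after OSMI-1. Of 22 further base excision genes, 7 fell and 2 rose after knockdown, led by the glycosylases Tdg (1444 to 683, log2 -1.08), Mutyh (138 to 73.3, log2 -0.93) and Neil3 (264 to 145, log2 -0.89). After OSMI-1 6 fell and 1 rose, led by Neil3 (128 to 51.6, log2 -1.34), the ligase Lig1 (497 to 304, log2 -0.71) and the endonuclease Apex2 (136 to 86.04, log2 -0.70). The medians of that list were -0.09 and -0.06, beside 0.01 and 0.00 over all genes.

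End joining and nucleotide excision repair work outside S phase too. Both lists are set beside 16.4% lower and 15.4% higher over all genes after knockdown, and 13.2% lower and 11.6% higher after OSMI-1. Of 10 end joining genes, 1 fell after knockdown (Xrcc6, the KU70 subunit, 1456 to 996, log2 -0.55) and 2 after OSMI-1 (Xrcc6, 556 to 407, log2 -0.45, and the KU80 subunit Xrcc5, 279 to 228, log2 -0.29), and none rose (medians -0.003 and 0.23). Of 20 nucleotide excision genes, 4 fell and 3 rose after knockdown, which is near the share over all genes (16.4% lower and 15.4% higher). The endonuclease Ercc5 (559.8 to 1003, log2 0.84) and the damage sensor Xpc (240.4 to 371, log2 0.67) rose, and the XPC-binding protein Cetn2 (539 to 325, log2 -0.73) fell. After OSMI-1 2 fell and 4 rose, led by Gtf2h4 (198 to 135, log2 -0.57), a TFIIH subunit that fell, and the endonuclease genes Ercc5 (286 to 413, log2 0.52) and Ercc4 (155 to 213, log2 0.44), which rose. The medians of that list were 0.008 and 0.09.

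**Figure D4:**
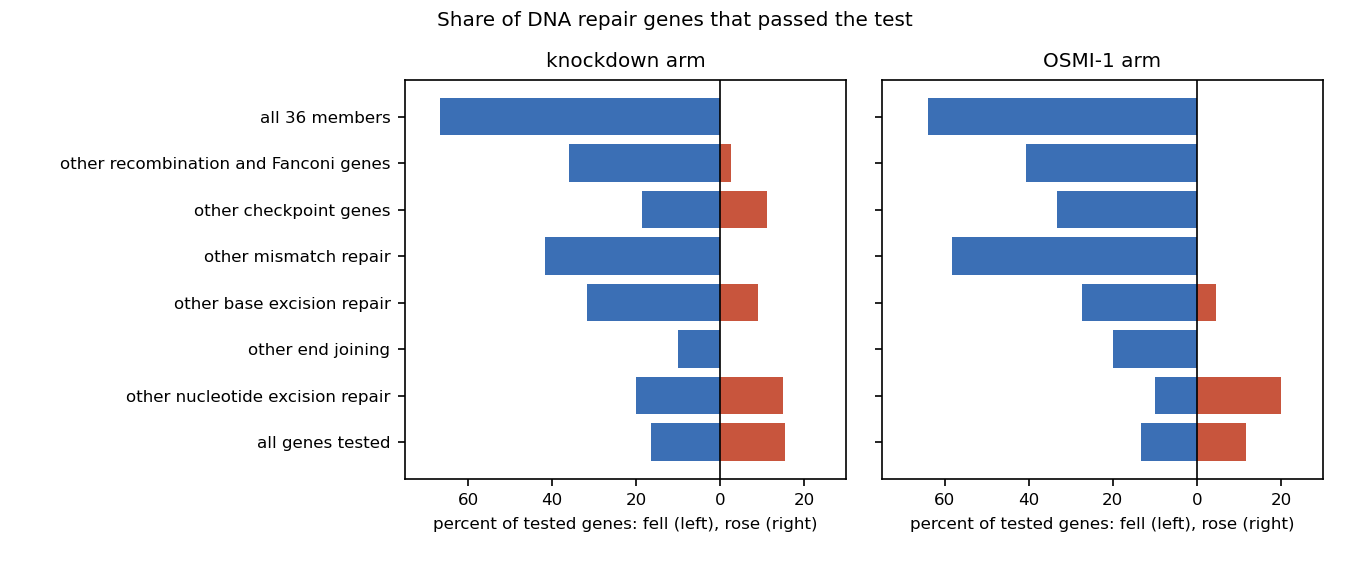
Bars give the percent of tested genes that fell (left, blue) or rose (right, red) at adjusted p below 0.05 in each arm, for the 36 members, 6 lists of other repair genes and all genes tested. The members have bars on the left only, as do mismatch repair and end joining in both arms, while nucleotide excision repair extends to both sides.

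Targets of p53, which the checkpoint kinases stabilise, rose in both arms. Of 18 tested after knockdown 14 rose and none fell (median 0.54), where 15.4% of all genes rose, and of 17 tested after OSMI-1 11 rose and none fell (median 0.36), where 11.6% rose. Cdkn1a, which encodes the CDK inhibitor p21, went from 13698 to 19571, log2 0.52 after knockdown and from 6319 to 9037, log2 0.52 after OSMI-1. Of 4 neuron markers tested, 1 rose after knockdown (Syt1, 46.4 to 261, log2 2.52) and 3 did not pass (median log2 fold change of the 4 -0.02). The list of 8 summed to 317 to 443 in control and 506 to 647 in treated libraries. After OSMI-1 3 of 4 fell, with sums of 218 to 249 in control and 112 to 152 in treated libraries. Of the neural stem cell markers 7 of 9 were tested, and 3 fell and 1 rose in each arm. These were not all the same genes: 1 fell in both arms, and 2 were called in opposite directions. Vim went from 7745 to 10928 after knockdown and from 6095 to 4329 after OSMI-1. Sox9 went from 2182 to 1391 after knockdown and from 961 to 1139 after OSMI-1. Other lists were near the lower limit of measurement: the oligodendrocyte, vessel and microglia lists summed to no more than 60.2 in any library, although Tek rose after knockdown and Mbp fell after OSMI-1. Of 4 ependymal markers Foxj1 was tested and fell after OSMI-1 (126 to 53.3, log2 -1.20), and Tmem212 was at 0 in all libraries. The part of these lists in the values of the repair genes was not tested.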

How the data were processed

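RNA of 22 libraries was analysed, grouped by the sample labels. The labels' extract protocol describes a strand-specific poly(A) kit and the series design text Smart-Seq2, and which was used could not be settled. STAR, RSEM and DESeq2 are listed in the submitters' processing notes without versions, beside the human build hg38. The tables hold mouse symbols, and coordinates here come from GENCODE M21 and RefSeq instead. Each arm has 1 table deposited by the authors. Per the file headers it gives normalized counts per library (a signal that is never negative), a log2 fold change and its standard error, the Wald statistic as a score, and p-values. Checked against the library values, the deposited log2 fold change of the inhibitor table has vehicle in the numerator, so its sign was turned wherever it was compared.

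All values were whole multiples of 1 step per library (100% within 0.001), so reads were recovered. Genes were kept by edgeR's filterByExpr (minimum count 10, minimum total 15). The main test was limma 3.58.1 (trend on mean level) applied to log2(normalized count + 1) without covariates, adjusted by Benjamini and Hochberg over all genes tested, two-sided. The pseudocount draws low values together, while a mean of logs weighs low libraries more than a ratio of means does, so a fold change of a low gene can be smaller or larger than edgeR's (Palb2 after knockdown, -1.14 against -0.99). Unadjusted, 5031 and 4038 genes had p below 0.05. On the recovered reads edgeR 4.0.16 called 3848 and 2804 genes and DESeq2 1.42.0 called 4063 and 2964. The fit was checked on simulated counts. No 2 libraries agreed within sampling noise.

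Alternatives were pseudocounts of 0.5 and 4, no filter, a mean of at least 50, TMM or total scaling, edgeR, DESeq2, a replicate block, each library left out, and the libraries that stood apart on principal components left out together (ShLuc 1 and 3, ShOgt 3, vehicle 1, OSMI-1 5). The 36 members, the lists of other repair genes, cell type and p53 markers, and the motifs were chosen with earlier results of these data known. One gene of the list of other recombination genes is not reported here and is left out of that list's counts. By rule, every member is named with its means; values of every library are given for the 8 members with the largest absolute log2 fold change among those called in an arm and for members whose difference between the arms passed; and of each other list up to 3 called genes with the largest change and a mean of at least 50 in 1 group are named. The groups of 6 are given by their lowest, median and highest value.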

Additional observations from a re-analysis of the deposited data

Results flagged for a closer look

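Among the 144 groups of values checked (36 members in 4 groups), 6 held a library whose gap to the nearest other was large for the range of its group, and chance gives about 1 in 20. Brip1 was at 82.3 in ShLuc 1, where the other ShLuc libraries lay between 123 and 136. Fancg was at 339.9 in ShLuc 1, where the others lay between 209 and 247. Fancd2 was at 229 in ShOgt 3, where the others lay between 168 and 172. Rad54l was at 151 in OSMI-1 4, the deepest library, where the others lay between 92.0 and 109. Xrcc3 was at 93.1 in OSMI-1 5, where the others lay between 44.3 and 55.8. Parp1 was at 1345 in vehicle 1, where the others lay between 1069 and 1113.

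For 3 members the test of the difference between the arms passed (limma, adjusted p of 0.028 to 0.045). The log2 fold change after knockdown minus that after OSMI-1 was 0.88 for Eme1, 0.42 for Tipin and -0.56 for Topbp1.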

How the results depend on the processing

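With 1 setting changed at a time, 22 to 26 members were called after knockdown and 21 to 23 after OSMI-1, and all of these were lower. Without the libraries that stood apart 24 and 22 were called. With 1 library left out, 22 to 26 members and 3208 to 3897 genes were called after knockdown, 21 to 22 members and 2428 to 2680 genes after OSMI-1, and 2 to 5 members and 2263 to 2647 genes for the difference between the arms. The 5 were reached without OSMI-1 6. Same-numbered libraries did not deviate together (correlations of -0.01 to 0.16 after knockdown, where only number 3 correlated best with its own, and -0.10 to 0.05 after OSMI-1, where none did), so the numbers were not taken as pairs; with the replicate block 23 and 22 members and 3962 and 2376 genes were called. TMM scaling moved the median of all genes by -0.013 and 0.002 (log2) and total scaling by 0.054 and -0.015. Total scaling gave 2214 genes higher and 1647 lower after knockdown, where the main test gave 1867 higher and 1988 lower, and all 23 members it called were lower.

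Every change of sign was in a member that had not passed. Atr after knockdown was 0.013 by edgeR, 0.0102 by DESeq2 and 0.14 without the libraries that stood apart, and Atrip was -0.18 without them. After OSMI-1 without them, Rmi1 was -0.089 and Msh6 0.0032, and with the replicate block Atrip was -0.014 and Msh6 0.049. With 1 library left out, the log2 fold change after knockdown ranged from -0.16 to 0.079 for Rmi1, from -0.36 to 0.24 for Atr and from -0.059 to 0.17 for Atrip. After OSMI-1 it ranged from -0.20 to 0.073 for Bard1, from -0.033 to 0.13 for Rmi1, from -0.20 to 0.034 for Rad50, from -0.10 to 0.27 for Atr, from -0.014 to 0.21 for Atrip and from -0.052 to 0.049 for Msh6. Leaving out ShLuc 1 brought Brca2, Atm and Clspn past the threshold after knockdown, leaving out ShOgt 5 or 6 Nbn, and leaving out ShLuc 3 Tipin. Leaving out vehicle 4 brought in Palb2 after OSMI-1. The cause was not tested. Counts of the end joining list ran from 1 to 2 after knockdown and from 1 to 4 after OSMI-1, and those of nucleotide excision repair after OSMI-1 from 2 to 6. The group means of Bard1, Palb2, Brca2, Atr, Fancb and Fancm lay below 100 in both arms, which limits their precision.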
